A study of Mus musculus with 7 samples.

Results

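Collagen genes were examined in the islet transcriptomes of second-generation (F2) male mice. They were taken as every gene whose symbol reads Col, a type number, the letter a and a chain number, which gave 44 of the 21899 genes listed. By the structure of their products, 11 of these encode fibrillar collagens, 6 encode type IV collagen of basement membranes and 27 belong to other classes. The founder dams of the AE (androgen-exposed) line were injected with dihydrotestosterone, a potent androgen, late in pregnancy, and those of the control line with vehicle. First-generation (F1) males of each line were bred with wild-type females to give the F2 males, called control-F2 and AE-F2, whose labels read control and hyperandrogenism. The labels give 3 control-F2 and 4 AE-F2 samples. Values here come from control-F2 replicate 1 and AE-F2 replicate 4, and the other 5 were not analysed here. Below, each group name stands for its library. How many animals gave the islets of a library, and their age, are not given in the sources used here. Islets were freed from the pancreas by digestion with collagenase, an enzyme that cuts the proteins these genes encode, and were then picked by hand.

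Collagens are matrix proteins in which chains wind around each other in a triple helix, which packs tightly because glycine, the smallest amino acid, recurs once in every triplet of the chain. Fibrillar collagens such as types I, III and V assemble into the cables of connective tissue and are made mainly by fibroblasts and their relatives. Type IV collagen forms the meshwork of basement membranes. In islets it surrounds the capillaries, and endothelial cells make much of it, since mouse β-cells lay down little basement membrane of their own. The other classes include the beaded filaments of type VI, the FACITs (fibril-associated collagens with interrupted helices), the multiplexins of vessel walls, transmembrane collagens and the short chains of types VIII and X.

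The difference between the classes can be read in their coding sequence. In GENCODE M21 transcripts (GRCm38), the longest unbroken stretch of glycine triplets, each a GGN codon followed by any pair of codons, ran to between 216 and 344 triplets in the 11 fibrillar genes, with a median of 338. In the 6 type IV genes it reached only 39 to 66, since 21 to 26 breaks divide the repeat, and in the 27 other genes 23 to 113. Exons of exactly 54 bases, which hold whole triplets, made up 41.2% to 55% of the coding exons of fibrillar genes and 2.13% to 5.66% of those of type IV genes. In the other 27 genes they made up 0% to 44.4%, a range that overlaps the fibrillar one, with Col22a1 highest. The exons below are shown because they carry this contrast. The first is exon 8 of Col1a2 (chr6:4515481-4515534, plus strand), the second is exon 6 of Col3a1 (chr1:45325360-45325413, plus strand) and the last is exon 9 of Col4a1, of 84 bases (chr8:11244486-11244569, minus strand). All are coding, read 5′ to 3′ on the strand of the gene, and capitals mark the in-frame glycine codons.
Col1a2 exon 8: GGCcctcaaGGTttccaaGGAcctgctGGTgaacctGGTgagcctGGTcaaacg
Col3a1 exon 6: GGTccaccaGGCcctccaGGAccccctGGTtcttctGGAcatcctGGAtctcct
Col4a1 exon 9: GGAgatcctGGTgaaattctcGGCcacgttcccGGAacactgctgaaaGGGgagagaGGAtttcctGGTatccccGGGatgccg
In both fibrillar exons a glycine codon opens every triplet. In the Col4a1 exon extra codons separate some of them, so the spacing is broken.

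**Figure D1:**
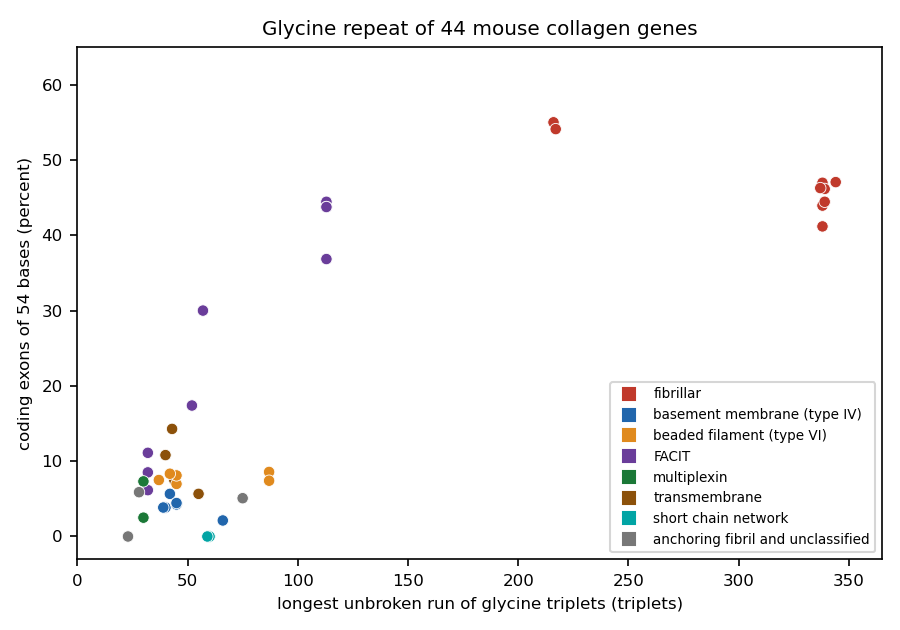
Each point is 1 of the 44 collagen genes, placed by its longest unbroken run of glycine triplets (horizontal axis, triplets) and by the share of its coding exons that are 54 bases long (vertical axis, percent), coloured by class. The fibrillar genes stand apart at 216 triplets or more, and the type IV genes lie at or below 66 triplets.

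The deposited estimated counts came to 16285888 for control-F2 and 21278513 for AE-F2. The 8 β-cell markers listed as a check of the islet label, the insulin genes among them, had 197841 and 198508 CPM in sum, counts scaled to a common library size. The AE-F2 library stands apart by lymphoid transcripts, since 10 of 10 B cell and plasma cell markers were higher in it and their sum was 15.7 CPM in control-F2 and 400.4 CPM in AE-F2. In pairs of values below, control-F2 comes first. With 1 library per group there is no replicate check, so no p-value is given. Each ratio of AE-F2 over control-F2 carries a 95% interval for counting error, which leaves out the spread between animals and treats PCR copies as separate molecules. Ratios were taken after scaling by library size with TMM, and a gene was tested for the size of its ratio only where its mean reached 10 counts, which 13627 genes did. Of the 44 collagen genes 32 passed, and 12 did not. Col9a1, Col17a1 and Col19a1 had 0 counts in both libraries, and 8 genes, these included, had no more than 3 counts in either, so their absence from islets cannot be read from this depth.

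The collagen transcripts of both libraries were led by the type IV genes. The levels below are in TPM, computed here from counts per length of the longest coding transcript of each gene. Col4a1 was highest, at 59.5 TPM in control-F2 and 51.4 TPM in AE-F2. Its partner chain Col4a2 followed with 35.7 and 30.6 TPM. Col6a6, a long chain of the type VI family, had 21.3 and 17.4 TPM. With this length, the order of these top genes was the same in both libraries. Col15a1, the type XV multiplexin found beneath endothelium, came next with 12.8 and 11.9 TPM. Col13a1, a transmembrane collagen of adhesion sites, had 9.98 and 11.7 TPM. The interval of Col15a1 over Col13a1 per length excluded 1 in control-F2 (1.29, 1.11 to 1.49) but not in AE-F2 (1.02, 0.904 to 1.15), so with this length the order of the pair is not set there. Col3a1 was in place 6 in both libraries, with 5.77 and 11.1 TPM, and in AE-F2 Col13a1 over Col3a1 was 1.05 (0.928 to 1.18). Below it the order differed, since Col1a1 stood in place 13 in control-F2 and in place 10 in AE-F2. Places below Col4a1 and Col4a2 depend on the length used. With the mean length of a gene's transcripts, Col15a1 (21.5 TPM) stood above Col6a6 (17.8), Col3a1 (11.2) and Col13a1 (8.98) in control-F2. In AE-F2, Col3a1 (21.9 TPM) then stood above Col15a1 (20.2), Col6a6 (14.8) and Col13a1 (10.6).

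**Figure D2:**
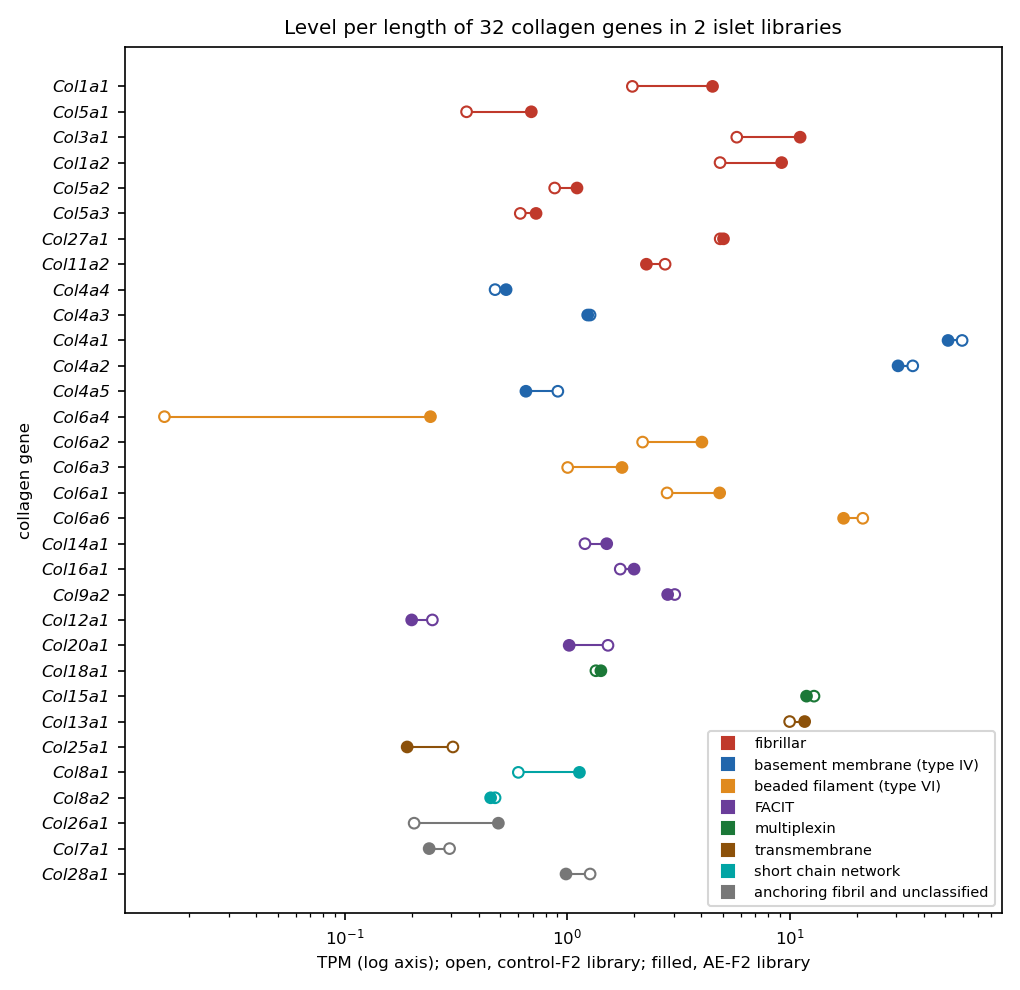
Level of the 32 collagen genes whose mean reached 10 counts, in TPM on a log axis, with an open circle for the control-F2 library and a filled circle for the AE-F2 library, grouped and coloured by class. Col4a1 and Col4a2 lie farthest right in both libraries, and the filled circles of Col1a1, Col1a2, Col3a1 and Col6a1 to Col6a3 lie to the right of the open ones.

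The question was how the AE-F2 library differs from the control-F2 library over the collagen family. The family as a whole took nearly the same share of both. Collagen genes held 10185 counts, or 0.0625% of the control-F2 library, and 13375 counts, or 0.0629% of the AE-F2 library, a ratio of 1.01 (0.982 to 1.03). Within this total the classes differed. Fibrillar genes together were 1.56-fold higher in AE-F2 (1.45 to 1.67), with 1205 counts against 2444. Of 8 tested, 7 were higher and 4 had an interval above equality (13.4% of all genes), with a median log2 ratio of 0.66. With no minimum count this median was 0.27. Type IV genes were at 0.888-fold (0.857 to 0.921), with 5665 counts against 6557 in the deeper library. Of 5 tested, 3 were lower and 2 had an interval below equality (13.4% of all genes), with a median of -0.17. The other 27 genes were at 1.01-fold (0.968 to 1.06), with 3315 and 4374 counts, and 10 of 19 tested were higher, with a median of 0.11. That median was -0.04 with AE-F2 counts thinned to the control-F2 total, and also with no minimum count. In whole islets, more cells of a type and more RNA per cell cannot be told apart.

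The make-up of the collagen counts moved accordingly. Fibrillar genes held 11.8% of them in control-F2 (exact binomial interval 11.2 to 12.5) and 18.3% in AE-F2 (17.6 to 18.9). Type IV genes held 55.6% in control-F2 and 49.0% in AE-F2. Per type IV count there were 0.213 fibrillar counts in control-F2 (0.200 to 0.226) and 0.373 in AE-F2 (0.356 to 0.391). This ratio, which does not depend on the scaling between libraries, was 1.75-fold higher in AE-F2 (1.62 to 1.89).

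**Figure D3:**
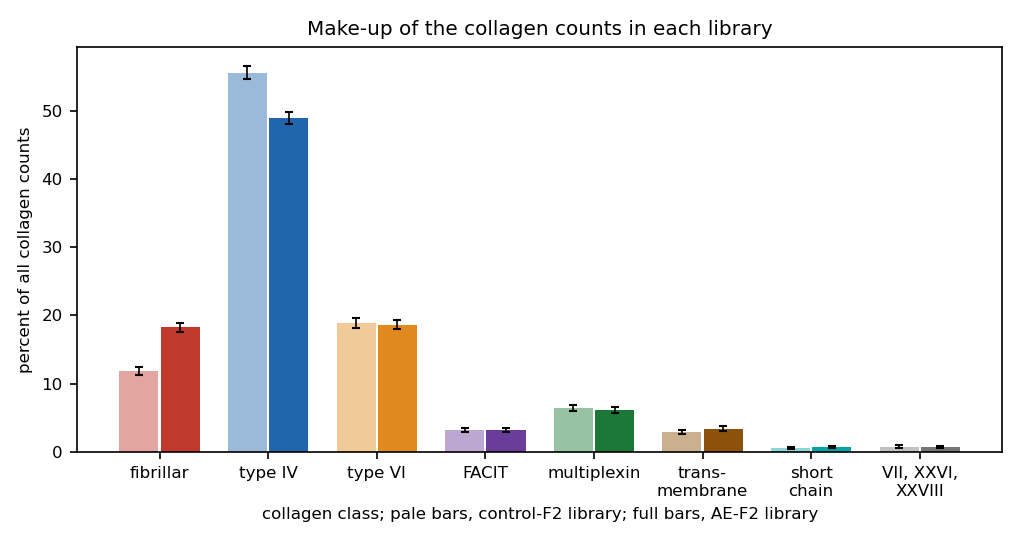
Percent of all collagen counts held by each class, with pale bars for the control-F2 library, full bars for the AE-F2 library and whiskers for the 95% exact binomial interval. The fibrillar bar is 11.8% in control-F2 and 18.3% in AE-F2, and the type IV bar is 55.6% and 49.0%.

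Gene by gene, 19 of the 32 collagens were higher in AE-F2 and 13 lower, with a median log2 ratio of 0.15, against 0.00 over all genes tested. At least 2-fold higher were 3 collagens, Col1a1, Col6a4 and Col26a1, where 3.16% of all genes tested reached that size. None was at least 2-fold lower, a size that 0.653% of all genes reached. At 1.5-fold, 10 were higher (6.04% of all genes) and 1, Col25a1, was lower (2.19% of all genes). The counting interval lay above equality for 10 collagens and below it for 4, and all genes gave 13.4% above and 13.4% below. For 18 collagens the interval included equality, so no difference was detectable at this depth.

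Among the fibrillar genes the higher values belonged to types I, III and V. Col1a1, the α1 chain of type I collagen, had 102 and 313 counts and a log2 ratio of 1.23 (0.91 to 1.57). Col1a2, which encodes its α2 chain, had 228 and 577 counts, with a log2 ratio of 0.96 (0.73 to 1.19). Both chains of type I were thus higher by amounts whose intervals overlap. Col3a1 encodes the single chain of type III collagen, which runs with type I in soft tissue. It had 282 and 727 counts, a log2 ratio of 0.98 (0.78 to 1.19). Col5a1, a chain of the type V collagen that starts fibrils and sets their width, had 26 and 68 counts and a log2 ratio of 0.99 (0.33 to 1.72). Its partner chain Col5a2 had 51 and 86 counts and a log2 ratio of 0.37 (-0.14 to 0.90), and Col5a3 had 33 and 52 counts and a log2 ratio of 0.27 (-0.38 to 0.95). The intervals of both include equality and also overlap that of Col5a1.

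The 2 remaining fibrillar genes that could be tested had intervals that include equality, like Col5a2 and Col5a3. Col27a1, a collagen of cartilage, was the fibrillar gene with the most counts in control-F2, 325, and had 450 in AE-F2, a log2 ratio of 0.09 (-0.12 to 0.30). Col11a2, a chain of type XI collagen, had 146 and 161 counts, a log2 ratio of -0.24 (-0.57 to 0.09). Col11a1, Col2a1 and Col24a1, with 9, 2 and 1 counts in control-F2 and 10, 0 and 0 in AE-F2, were too low to compare. Grouped after the values were seen, the 6 genes of types I, III and V were 1.94-fold higher in sum (1.78 to 2.12), and the other 5 fibrillar genes were at 0.987-fold (0.875 to 1.11). Types I, III and V held 7.09% of collagen counts in control-F2 and 13.6% in AE-F2.

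The main type IV genes were slightly lower in AE-F2. Col4a1 and Col4a2 encode the chains of the type IV helix that nearly all basement membranes hold. Col4a1 had 3453 counts, against 3995 in the deeper AE-F2, which gives a log2 ratio of -0.17 (-0.24 to -0.11). Col4a2 had 2020 and 2322 counts, a log2 ratio of -0.18 (-0.27 to -0.09). With the trends of the ratio against GC content and transcript length removed, these became -0.09 (-0.16 to -0.02) and -0.07 (-0.15 to 0.02), so the interval of Col4a2 then included equality. The chains of more specialised membranes such as that of the kidney glomerulus were far lower. Col4a3 had 95 and 124 counts and a log2 ratio of 0.00 (-0.39 to 0.40). Col4a4 had 42 and 63 counts, with a log2 ratio of 0.20 (-0.38 to 0.80), and Col4a5 had 52 and 50, with -0.44 (-1.03 to 0.15). These intervals include equality, and Col4a6 had 3 counts in each library.

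Type VI collagen, which forms beaded filaments around cells, split between its chains. Its class sum was at 0.994-fold. Col6a1, Col6a2 and Col6a3, the chains of the common type VI filament, had 101, 89 and 89 counts in control-F2 and 233, 220 and 209 in AE-F2. Their log2 ratios were 0.82 (0.48 to 1.18), 0.92 (0.56 to 1.30) and 0.85 (0.49 to 1.22), close to those of types I and III. Summed after the values were seen, these 3 genes were 1.82-fold higher (1.58 to 2.10). Col6a6 can take the place of the α3 chain and held most type VI counts, 1640 and 1799, with a log2 ratio of -0.25 (-0.35 to -0.15). Per length there were 21.2 Col6a6 transcripts for each Col6a3 transcript in control-F2 and 9.91 in AE-F2, or 13.1 and 6.14 with mean transcript length. Col6a4, a chain of the same gene cluster, had 1 count and 21, a ratio of 11 with an interval from 2.59 to 666, and its log2 ratio of 3.46 became 1.73 with a pseudocount of 5. Col6a5 had 4 and 11 counts.

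In the other classes most differences lay within counting error. Col13a1 had 277 and 433 counts, a log2 ratio of 0.26 (0.04 to 0.49). Col15a1, with 583 and 722 counts, had -0.07 (-0.23 to 0.09), and Col18a1, whose product releases endostatin, had 66 and 93 counts and 0.11 (-0.36 to 0.59). The multiplexins thus showed no detectable difference. Col8a1 encodes a short chain made by cells of vessel walls. It had 27 and 68 counts, a log2 ratio of 0.93 (0.29 to 1.65), while its partner Col8a2 had 18 and 23, with -0.04 (-0.98 to 0.95). Among the FACITs, which coat fibrils, Col14a1 had 68 and 114 counts and a log2 ratio of 0.36 (-0.08 to 0.82). Col16a1 had 79 and 122 counts (0.24), Col9a2 78 and 97 (-0.07) and Col12a1 25 and 27 (-0.27), all with intervals that include equality. Col20a1 was the FACIT whose interval excluded equality, with 67 and 60 counts and a log2 ratio of -0.54 (-1.07 to -0.02), but it included equality when counts were thinned to equal depth (-0.98 to 0.13) or GC and length trends were removed (-1.01 to 0.04). Col26a1 had 5 and 16 counts, and its log2 ratio of 1.20 had an interval from -0.22 to 3.10 and became 0.69 with a pseudocount of 5. Col25a1, a transmembrane collagen of neurons, had 18 and 15 counts, a log2 ratio of -0.64 (-1.74 to 0.43). Col7a1, the anchoring fibril of skin, had 24 and 26 counts, and Col28a1, a collagen of peripheral nerve, 47 and 49. The low counts of Col22a1 (1 and 1), Col9a3 (4 and 9), Col23a1 (1 and 6) and Col10a1 (3 and 0) allow no comparison.

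**Figure D4:**
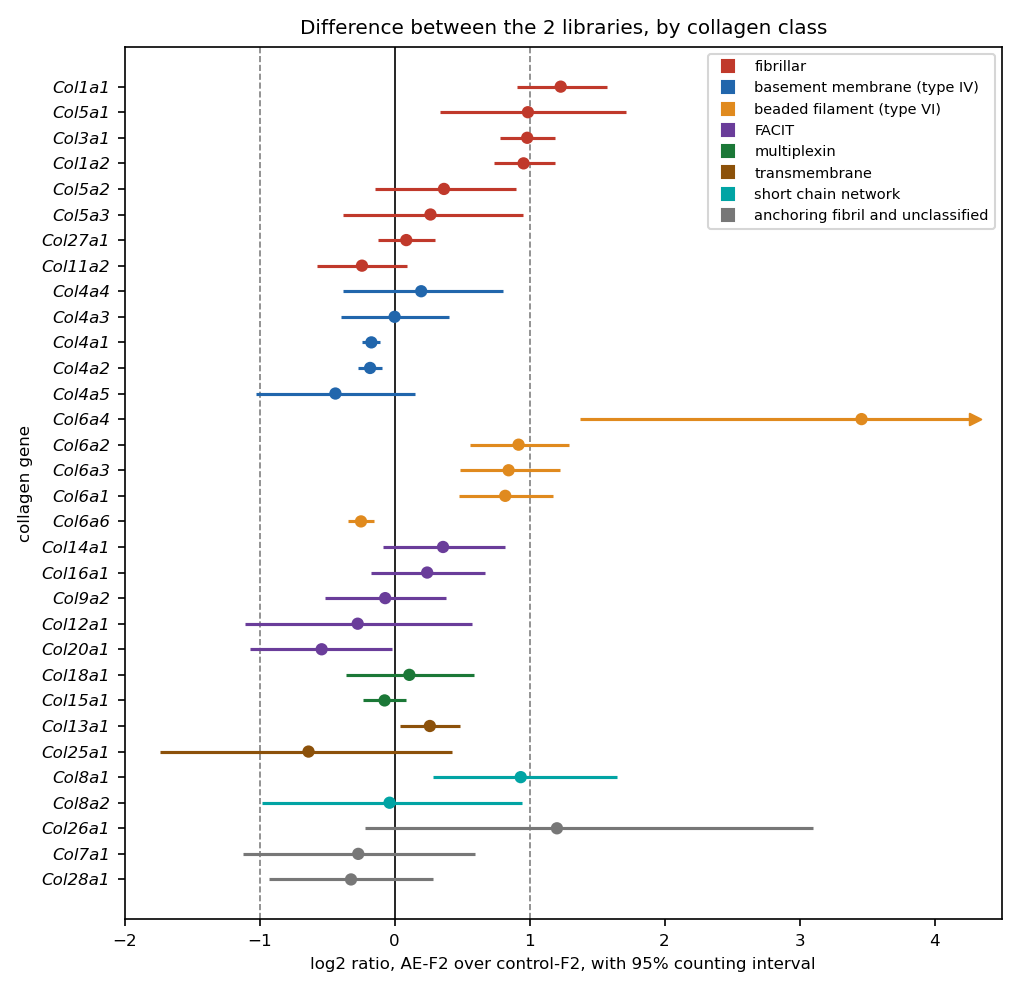
Log2 ratio (AE-F2 over control-F2) for the 32 collagen genes tested, with its 95% counting interval, coloured by class, with a solid line at equality and dashed lines at 2-fold in each direction. Col1a1, Col1a2, Col3a1, Col5a1, Col6a1 to Col6a3 and Col8a1 lie near 2-fold higher, Col4a1, Col4a2 and Col6a6 lie just below equality, and the arrow marks the interval of Col6a4, which goes on to 9.38.

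The proportions of chains that join in 1 protein were compared between the libraries. Per length there were 1.67 Col4a1 transcripts for each Col4a2 transcript in control-F2 (1.58 to 1.76) and 1.68 in AE-F2 (1.59 to 1.77). With mean transcript length these ratios were 2.16 and 2.18, a choice that the intervals do not cover. For Col1a1 over Col1a2 the values were 0.403 (0.316 to 0.512) and 0.489 (0.425 to 0.562), or 0.575 and 0.697 with mean transcript length. For Col6a1 over Col6a2 they were 1.29 and 1.20, or 2.03 and 1.90 with mean transcript length, and for Col6a3 over Col6a1 0.357 and 0.364. For Col5a1 over Col5a2 they were 0.402 (0.240 to 0.657) and 0.623 (0.447 to 0.867). The intervals of the 2 libraries overlapped for each of these pairs. They did not for the alternative chains Col6a6 and Col6a3, given above, with intervals of 17.1 to 26.6 and 8.58 to 11.5. Nor did they for a pair from different classes, Col4a1 over Col3a1, which was 10.3 in control-F2 (9.12 to 11.7) and 4.62 in AE-F2 (4.27 to 5.01).

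Several collagen genes lie side by side in the genome, with no protein-coding gene between them in GENCODE M21. Col4a1 and Col4a2 lie head to head, and their log2 ratios, -0.17 and -0.18, were nearly equal. Col4a4 and Col4a3 also lie head to head, with 0.20 and 0.00. Col6a2 and Col6a1 follow each other on 1 strand, with 0.92 and 0.82. Col3a1 and Col5a2 lie tail to tail, with 0.98 and 0.37. The intervals of the ratios overlap within each of these pairs. In the run of Col6a6, Col6a5 and Col6a4 on 1 strand, the intervals of the outer genes, at -0.25 and 3.46, do not overlap, the latter resting on 1 count in control-F2. In RefSeq promoter windows (GRCm38.p6), from 250 bases before the start to 50 after it, the starts of Col4a1 and Col4a2 are 21 bases apart and their windows share 78 bases. The windows of Col1a2 (chr6:4505368-4505667, plus strand), Col3a1 (chr1:45311288-45311587, plus strand) and Col4a2 (chr8:11312555-11312854, plus strand) are shown as examples of genes that were higher and lower. Capitals mark the motifs searched, which do not overlap here: CCAAT and GGGCGG on both strands and TATAAA on the strand of the gene.
Col1a2 promoter: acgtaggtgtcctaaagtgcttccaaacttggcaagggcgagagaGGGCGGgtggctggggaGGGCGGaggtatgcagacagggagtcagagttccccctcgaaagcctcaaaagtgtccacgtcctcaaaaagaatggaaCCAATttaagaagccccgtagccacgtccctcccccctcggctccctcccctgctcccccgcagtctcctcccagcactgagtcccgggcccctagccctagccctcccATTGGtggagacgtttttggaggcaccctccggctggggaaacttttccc
Col3a1 promoter: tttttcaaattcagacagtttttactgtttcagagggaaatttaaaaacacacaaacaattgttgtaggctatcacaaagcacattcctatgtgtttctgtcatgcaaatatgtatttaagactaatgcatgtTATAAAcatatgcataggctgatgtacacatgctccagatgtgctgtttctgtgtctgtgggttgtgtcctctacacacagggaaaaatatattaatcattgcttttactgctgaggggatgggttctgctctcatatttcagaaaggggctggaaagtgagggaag
Col4a2 promoter: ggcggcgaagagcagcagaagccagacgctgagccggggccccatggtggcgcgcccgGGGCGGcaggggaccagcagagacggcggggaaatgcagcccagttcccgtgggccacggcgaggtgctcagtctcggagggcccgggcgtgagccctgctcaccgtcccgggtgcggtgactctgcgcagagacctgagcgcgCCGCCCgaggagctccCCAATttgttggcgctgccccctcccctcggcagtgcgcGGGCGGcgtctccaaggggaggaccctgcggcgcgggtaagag
The Col1a2 window holds CCAAT on both strands and a pair of GGGCGG motifs. The Col3a1 window has 1 TATAAA, 37.7% G and C and 0 CpG, while that of Col4a2 has 73.7% G and C and 33 CpG. Of 38 collagen windows, 34.2% hold CCAAT, 13.2% TATAAA and 60.5% GGGCGG, against 37.4%, 8.32% and 35.7% of 32851 RefSeq windows. These are shares of windows, not of genes. Col6a2, Col9a1 and Col18a1 have more than 1 window each, and some genes, Col1a1 and Col5a2 among them, have none. A match describes these letters only.

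Genes whose products work with collagens were read by group. The fibril partners, proteoglycans and glycoproteins that bind fibrils, had 12 of 15 tested members higher, where 6818 of all 13627 genes were, and 4 of them at least 2-fold (3.16% of all genes), with a median log2 ratio of 0.64. Bgn (biglycan) had 264 and 607 counts, with a log2 ratio of 0.82 (0.61 to 1.03), and Dcn (decorin) had 95 and 254, with 1.03 (0.69 to 1.39). Sparc, a collagen-binding glycoprotein, had the most counts of the list, 1300 and 1926, and 0.19 (0.08 to 0.29). The 4 past 2-fold were Dcn and, chosen after their values were seen, Eln (elastin), Fn1 (fibronectin) and Lum (lumican), with log2 ratios of 1.74, 1.87 and 1.87. Aspn (asporin) was at -0.18 (-0.52 to 0.16), and 0 members had an interval below equality.

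Basement membrane partners, the laminins, nidogens and proteoglycans of the same sheets, had a median of the same sign as the type IV genes. Of 13 tested, 9 were lower and 4 higher, none by 2-fold, with a median log2 ratio of -0.15. Hspg2 (perlecan), the heparan sulfate proteoglycan of basement membranes, had 2222 and 2409 counts, a log2 ratio of -0.27 (-0.35 to -0.18). Laminin Lamc1 (0.01) and nidogen Nid1 (0.07) had intervals that include equality. Of the 13 intervals 11 did so, and Hspg2 was the 1 below. Lama2, with 84 and 162 counts and a log2 ratio of 0.56 (0.18 to 0.96), was the 1 above and is named for that reason. Over all genes, 13.4% had an interval above equality and 13.4% below it.

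Genes for folding and modification of collagen had 10 of 21 tested members higher and 11 lower, with a median of -0.01 and a sum at 0.973-fold (0.960 to 0.987). The interval lay below equality for 4 and above it for 1, Ppib (0.24), a proline isomerase named after its value was seen, against 13.4% of all genes on each side. P4hb, a subunit of prolyl 4-hydroxylase and a general disulfide isomerase that β-cells use as well, had 18532 and 23939 counts and a log2 ratio of -0.01 (-0.04 to 0.02). Its catalytic partner P4ha1 was at -0.29 (-0.39 to -0.19), and Mia3, which loads collagen for export, at -0.04 (-0.08 to 0.00). Creb3l1, a transcription factor for collagen genes, was at -0.24 (-0.34 to -0.14). Such genes serve other secreted proteins too.

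Of 7 tested genes for propeptide cleavage and crosslinking, 7 had a ratio above equality, with a median of 0.09 and a sum at 1.04-fold (0.993 to 1.08). But 5 of their intervals include equality and 2 lay above it (13.4% of all genes), those of Pcolce and Adamts2. Pcolce had 39 and 77 counts, a log2 ratio of 0.59 (0.03 to 1.19). Bmp1, which cleaves the end of procollagen, was at 0.04 (-0.04 to 0.12) and the crosslinker Loxl2 at 0.01 (-0.11 to 0.12). Adamts2, which removes the other end, had 14 and 47 counts, a log2 ratio of 1.33 (0.48 to 2.34). For collagen breakdown 5 of 15 genes could be tested and all 5 were higher, 3 with an interval above equality (13.4% of all genes), with a median of 0.45. These 3 were the inhibitors Timp3 (0.40) and Timp2 (0.31) and, named after its value was seen, the protease Mmp2, with 6 and 33 counts and a log2 ratio of 1.98 (0.80 to 3.62). Among 10 receptors, 6 were higher and 4 lower, with a median of 0.04. The interval lay above equality for 3 and below it for 1 (13.4% of all genes on each side). Adgrg1, the most abundant, was at 0.07 (0.01 to 0.12) and Itgb1, the β1 integrin, at 0.14 (0.08 to 0.20). Itga2, named as the 1 below, had 47 and 37 counts, a log2 ratio of -0.72 (-1.39 to -0.07). The 13 genes of TGF-beta signalling, a main inducer of fibrillar collagens, had a median of -0.0049, with 6 higher and 7 lower, and Tgfbr1, the most abundant, at -0.01 (-0.12 to 0.11). The interval lay above equality (13.4% of all genes) for 4 of them, Ccn2 (0.34), Ltbp1 (0.42), Tgfb1 (0.36) and Tgfbr2 (0.37), named after their values were seen, and below it (also 13.4% of all genes) for 0.

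Among markers of cells that could supply these transcripts, those of fibroblasts were mostly higher in AE-F2. Of 9 tested fibroblast markers, 8 were higher with an interval above equality (13.4% of all genes), and the median log2 ratio was 0.53. At least 2-fold higher were 4 (3.16% of all genes), and 1 was at least 2-fold lower (0.653% of all genes). The 12 listed sum to 170.1 CPM in control-F2 and 210.0 CPM in AE-F2, and none was at 0 in either. The list's most abundant gene, Gsn (gelsolin), which other cells express as well, had 1557 and 2199 counts and a log2 ratio of 0.12 (0.02 to 0.21). Dpt (dermatopontin) had 14 and 67 counts, Pdgfra 10 and 43, and Pi16, the 1 with a ratio below equality, had 13 and 7, all 3 chosen after their values were seen. The log2 ratios of these genes were 1.84, 1.67 and -1.23, and the interval of Pi16, from -2.84 to 0.16, includes equality. Dcn and Lum stand on this list and among the fibril partners. Pericyte and stellate cell markers, of cells that also make fibrillar collagen, had a median of 0.09 and summed to 318.0 and 329.7 CPM. Of the 12, 0 reached 2-fold. Their intervals included equality for 7, lay above it for 3 and below it for 2 (13.4% of all genes on each side). Above were Rgs5 (0.08), the most abundant, Des (0.58) and Tagln (0.44), and below were Mcam (-0.27) and Acta2 (-0.31). Des, Tagln and Acta2 are named for their intervals. Endothelial markers had a median of -0.05, with 10 of 12 lower and 1051 and 1017 CPM in sum. Of their intervals 7 included equality, 3 lay below it and 2 above (13.4% of all genes on each side). Below were Kdr (-0.09), the most abundant of the list, Esm1 (-0.24) and Robo4 (-0.19). Above were Plvap (0.12) and Vwf (1.00), the latter with 32 and 84 counts. Robo4 and Vwf are named for their intervals. The part of cell make-up in the collagen result was not tested.

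Markers of other cells gave mixed values. Acinar markers, of the enzyme-making exocrine pancreas, had 6 of 7 lower and a median of -0.44, but the most abundant of them, Amy2a5, was at 0.63 (0.59 to 0.67), and the list summed to 1993 and 1869 CPM. Islet β-cell markers had 6 of 8 lower and a median of -0.10. Schwann cell markers had a median of 0.34, but 6 of 7 intervals include equality and the list summed to 105.8 and 110.8 CPM. Duct markers had a median of 0.01 and a sum 1.13-fold higher (1.09 to 1.17). The interval lay above equality for 3 of 7 and below it for 0 (13.4% of all genes on each side). Those above were Krt7 (0.24) and, chosen after their values were seen, Muc1 (1.05) and Krt19 (1.24). Macrophage markers had a median of -0.05 and sums of 81.6 and 96.8 CPM. Of 8 intervals 6 included equality, 1 lay below it and 1 above (13.4% of all genes on each side). The most abundant, C1qa, had 592 and 647 counts and was the 1 below, with a log2 ratio of -0.25 (-0.42 to -0.09). Lyz2, lysozyme, was the 1 above, with 112 and 571 counts and a log2 ratio of 1.96 (1.67 to 2.27). Among the B cell markers given above, the immunoglobulin genes Ighm and Igkc had 51 and 9 counts in control-F2 and 5376 and 1820 in AE-F2, and Jchain had 6 and 347. Cd79a, with the most control-F2 counts of the list, differed far less. It had 178 and 391 counts, a log2 ratio of 0.75 (0.49 to 1.02). The list sum was 25.5-fold higher in AE-F2, but 5.14-fold without Ighm and Igkc. Pou2af1 had 0 counts in control-F2 and 139 in AE-F2, and the part of lymphoid tissue in the collagen result was not tested.

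**Figure D5:**
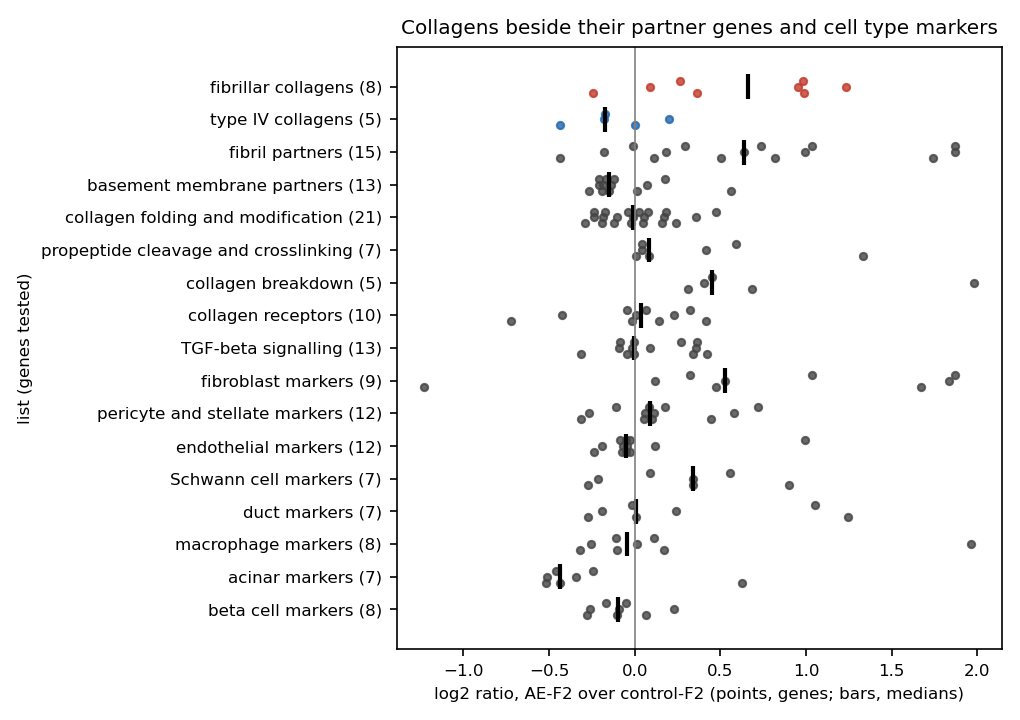
Log2 ratio (AE-F2 over control-F2) for each tested gene (points) and its list median (black bars), with the number of genes in brackets. Fibrillar collagens, fibril partners and fibroblast markers have medians of 0.66, 0.64 and 0.53, and type IV collagens and basement membrane partners -0.17 and -0.15, while the B cell list, with a median of 5.20, is left out for scale.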

How the data were processed

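RNA-seq of pancreatic islets was analysed in 1 control-F2 and 1 AE-F2 library of the 7 samples labelled. mRNA was enriched with oligo(dT) and sequenced on an Illumina instrument. The authors deposited estimated counts per Ensembl gene, not scaled for depth or length. The methods name HISAT2 as aligner, and the submitters' processing notes name Bowtie2, RSEM and DESeq2. The annotation, build and strand setting of the counting are not given in the sources used here.

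Symbols, transcript lengths, coding sequences and gene positions were taken from GENCODE M21 (GRCm38), in which 21806 of 21899 identifiers had a symbol, and promoters from RefSeq (GRCm38.p6). Every collagen value was a whole number. Collagen exons shared at most 6.07% of their bases with another gene. Counts were rounded and scaled with TMM (edgeR 4.0.16, R 4.3.3) over genes whose mean reached 10 counts, and ratios were taken with a pseudocount of 0.5. Intervals are 95% Clopper-Pearson intervals (scipy 1.17.1) on the part of a gene's or class's counts that AE-F2 holds, turned into ratios. No model could be fitted to single libraries. The steps were tested on simulated libraries.

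Collagens with a mean of at least 100 counts or a 2-fold difference were named by rule. From each other list the rule took up to 4 members with the most counts and any 2-fold different with a mean of at least 100. Not every such member is given, and some others are named after their values were seen. The remaining collagens are given so that all are accounted for. Values of the other list members are not given. The members, classes and lists were chosen with earlier results of these data known. Alternatives were median-of-ratios (DESeq2 1.42.0), upper-quartile and total scaling, scaling without insulin and mitochondrial genes, other minimum counts, a pseudocount of 5, a 1.5-fold threshold, thinning to equal depth, removal of GC and length trends, mean transcript length for TPM, and counting Col15a1 and Col18a1 with type IV.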

Additional observations from a re-analysis of the deposited data

How the results depend on the processing

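The 1.56-fold sum of fibrillar genes, the 0.888-fold sum of type IV genes and the 1.01-fold sum of all collagens moved by less than their counting intervals under each scaling and class alternative and under thinning, and no result changed sign where its interval excluded equality. No scaling moved the median of all genes by more than 0.0129. The count of collagens at least 2-fold higher, 3 as reported, was 1 with a minimum mean of 100 counts, 1 with the AE-F2 counts thinned to the control-F2 total, 6 with GC and length trends removed, when Col1a2, Col3a1 and Col5a1 passed as well, and 10 at 1.5-fold. The count at least 2-fold lower, 0 as reported, was 2 with a minimum mean of 1, 3 with no minimum and 1 at 1.5-fold. The count with an interval below equality, 4 as reported, was 2 with GC and length trends removed, Col4a1 and Col6a6. With mean transcript length, type IV held 62.6% and other classes 25.4% of collagen TPM in the control-F2 library, and fibrillar, type IV and other classes 20.1%, 54.05% and 25.8% in the AE-F2 library. The median of fibrillar genes, 0.66, ran from 0.27 with no minimum to 0.96 with a minimum of 100. That of type IV genes, -0.17, was -0.07 with GC and length trends removed and with Col15a1 and Col18a1 added. That of other genes, 0.11, was -0.04 with thinning and with no minimum, and reached 0.26 with a minimum of 100, so its sign is not set. With a pseudocount of 5 the count at least 2-fold higher was 2, since Col26a1 fell short. GC and length trends, which are fitted per gene, were not removed from the sums. The causes were not tested, except that a lower minimum or threshold admits more genes. No paired analysis was possible because the libraries used, control-F2 replicate 1 and AE-F2 replicate 4, share no replicate number, and no replicate could be left out with 1 library per group. Depth limits collagens under about 100 counts, whose intervals often span equality, and no interval covers the spread between animals.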
